A study of Mus musculus with 6 samples.

Results

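The resident macrophages of the liver, the Kupffer cells, are described here by 10 genes that mark their identity: Timd4, Vsig4, Clec4f, Clec1b, Marco, Cd163, Cd5l, Folr2, Adgre1 and Nr1h3. They were chosen by name from the 43346 genes of the deposited count table. The table lists 9 under these symbols, and Adgre1 was found by its Ensembl identifier, ENSMUSG00000004730, because the table names it Emr1. All 10 held enough counts to be tested.

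Each of the 6 libraries is ribosome-depleted total RNA from whole mouse liver. Every animal was kept on the FFC diet, a feeding model of metabolic dysfunction-associated steatohepatitis (MASH), and carries a label of short hairpin RNA (shRNA). The series text gives an adeno-associated virus 8 (AAV8) construct as the means of silencing S100a11, without saying how the scrambled hairpin was delivered. Libraries 2, 3 and 2600 are labelled with an shRNA against S100a11 and as a knockdown. Libraries 28, 30 and 31 are labelled with a scrambled shRNA and as controls. The labels do not give strain, sex, age, dose, duration or the promoter of the hairpin, and no library of another diet or without a hairpin was analysed here. They also do not say that the libraries come from separate animals, so the p-values measure the spread between these libraries.

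Kupffer cells sit inside the sinusoids, where they take up bacteria, ageing red cells and dying cells from portal blood. In mice they are seeded before birth and renew themselves, and signals from endothelial cells, stellate cells and hepatocytes keep their identity genes switched on. In steatohepatitis resident cells are known to be lost and to be replaced in part by monocyte-derived cells, which take on some identity genes, such as Clec4f, sooner than others, such as Timd4.

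S100a11, the calcium-binding protein targeted by the hairpin, was low in only some of the libraries that bear its name. It stood at 16.0, 3.55 and 3.41 CPM (CPM here scales each gene's counts by the TMM-adjusted library size) in libraries 2, 3 and 2600, and at 15.9, 22.9 and 30.0 CPM in scrambled libraries 28, 30 and 31. Library 2 thus lay within the range of the controls, and "knockdown-labelled" below refers to the label. With all libraries the log2 change of S100a11 was -1.57 ± 0.56 (SE, edgeR adjusted p = 0.095). Without library 2 the change of S100a11 was -2.75 (edgeR adjusted p = 0.00044). The non-coding gene Gm26917 took 10.8% of the counts in library 2600 and 3.16% to 6.44% in the other 5. Hepatocyte genes were abundant throughout, with a summed level of 43261 to 72193 CPM over 10 markers. Depth was 53517387 to 78091845 counts a library.

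One identity gene, Timd4, passed the threshold of an edgeR adjusted p under 0.05, and it was higher in the knockdown-labelled libraries. No member was lower at that threshold. Marco and Cd163 had larger log2 changes than Timd4, but these came from 1 or 2 libraries. Clec4f, Clec1b, Cd5l, Vsig4, Folr2 and Adgre1 overlapped between the groups, and Nr1h3 was higher in each knockdown-labelled library without passing. Over all 19352 genes tested 14.1% passed, 5.82% upward and 8.28% downward, so that 1 of 10 members is close to the share of all genes. By sign alone 5 members were higher and 5 lower, with a median log2 change of -0.07 against 0.04 over all genes. Without library 2 the members called higher were 4, Timd4, Marco, Cd163 and Nr1h3, and 0 were called lower, where 9.13% of all genes were called higher and 12.0% lower. With scaling by library totals alone 1 was called higher and 1 lower, Clec1b, where the shares of all genes were 2.05% and 20.5%. In whole-liver RNA fewer cells of a type cannot be told apart from less RNA per cell.

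**Figure D1:**
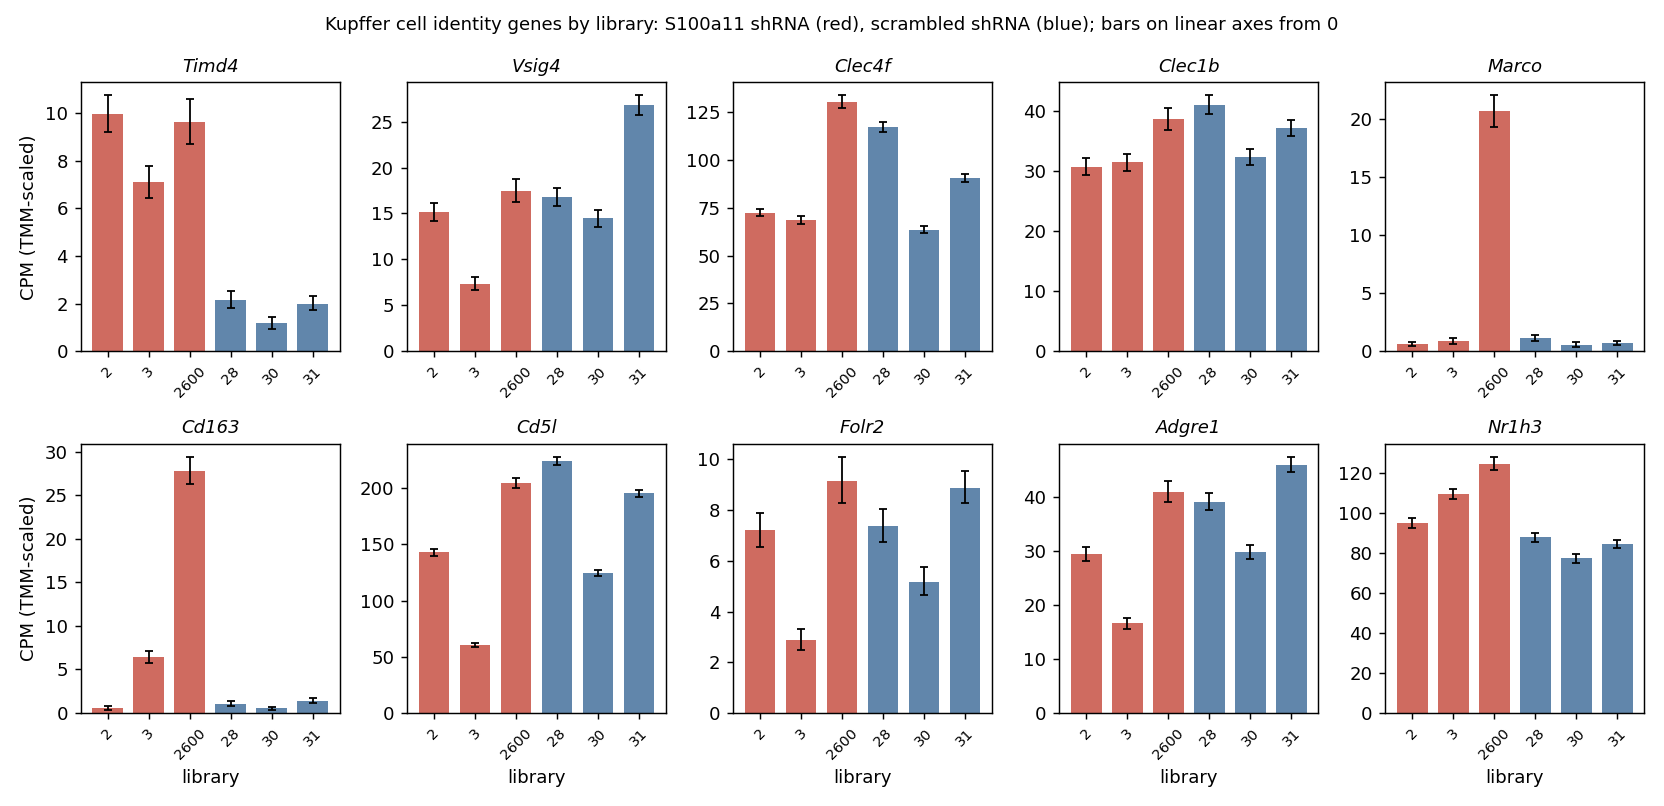
TMM-scaled CPM of each member in each library, on a linear axis that starts at 0. Red bars are libraries 2, 3 and 2600, labelled S100a11 shRNA, and blue bars are scrambled libraries 28, 30 and 31. Error bars are 95% Poisson intervals, which cover counting error only. Timd4 is higher in each red bar than in any blue bar, whereas the Marco bar stands out in library 2600 alone.

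Timd4 encodes TIM-4, an immunoglobulin-fold receptor that binds phosphatidylserine on dying cells. In the liver it marks long-lived resident Kupffer cells. The gene (ENSMUSG00000055546) is annotated in mm10 at chr11:46810800-46844332, plus strand. Its level was 9.96, 7.10 and 9.62 CPM in libraries 2, 3 and 2600, from 643, 444 and 423 counts. Scrambled libraries 28, 30 and 31 held 2.16, 1.18 and 2.01 CPM, from 145, 81 and 174 counts. The lowest knockdown-labelled library was well above the highest scrambled one, and library 2, with S100a11 at a control level, had as much Timd4 as library 2600. The group means of 8.89 ± 1.56 and 1.78 ± 0.53 CPM (SD, n = 3 each) gave a log2 change of 2.32 ± 0.27 (SE, edgeR adjusted p = 0.0033). Without any one library the change lay between 2.09 and 2.47, with edgeR adjusted p-values of 0.0013 to 0.018. With scaling by library totals alone it was 1.97 (edgeR adjusted p = 0.0020). Of the members 2, Timd4 and Nr1h3, were higher in every knockdown-labelled library than in any scrambled one, and 0 were lower in every one. Groups failed to overlap for 34.7% of all genes tested, 16.5% upward and 18.1% downward.

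The promoters of the 3 members with the largest log2 changes are shown because Timd4 separated the groups and Marco and Cd163 both peaked in library 2600. Each is the stretch of 250 bases upstream of the RefSeq start (GRCm38.p6, the same assembly as mm10), read 5′ to 3′ on the strand of the gene. RefSeq windows were found for 9 of 10 members, all but Adgre1. Capitals mark any match, on either strand, to the core letters of 4 motifs: GAGGAA for PU.1, TGGGAA for RBPJ, TGCTGA for a MAF half-site and AGGTCA for a nuclear receptor half-site. The Timd4 window is chr11:46810549-46810798 on the plus strand, the Marco window chr1:120505025-120505274 on the minus strand and the Cd163 window chr6:124304401-124304650 on the plus strand.
Timd4: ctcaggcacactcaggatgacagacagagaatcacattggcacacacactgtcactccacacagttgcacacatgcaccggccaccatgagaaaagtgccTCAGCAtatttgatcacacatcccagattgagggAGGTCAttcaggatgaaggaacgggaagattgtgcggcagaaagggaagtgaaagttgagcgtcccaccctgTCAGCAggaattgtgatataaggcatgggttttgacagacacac
Marco: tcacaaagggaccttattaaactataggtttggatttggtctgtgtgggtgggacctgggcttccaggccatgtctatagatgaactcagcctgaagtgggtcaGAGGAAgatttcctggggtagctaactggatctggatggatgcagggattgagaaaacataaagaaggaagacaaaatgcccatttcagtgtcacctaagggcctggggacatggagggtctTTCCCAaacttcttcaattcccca
Cd163: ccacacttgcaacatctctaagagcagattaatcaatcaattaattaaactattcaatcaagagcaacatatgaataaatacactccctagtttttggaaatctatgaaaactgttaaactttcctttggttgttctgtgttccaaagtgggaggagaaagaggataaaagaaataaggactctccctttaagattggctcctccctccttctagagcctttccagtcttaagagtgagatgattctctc

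The Timd4 window held 2 MAF half-sites, which begin 150 and 44 bases before the start, and 1 nuclear receptor half-site at 116 bases. The Marco window held 1 PU.1 core at 146 bases and 1 RBPJ core at 24 bases. None of the 4 motifs was in the Cd163 window. Among 32851 RefSeq windows of this length the PU.1 core was found in 23.3%, the RBPJ core in 21.6%, the MAF half-site in 16.1% and the nuclear receptor half-site in 14.0%. The PU.1 core was also found in the windows of Vsig4 and Cd5l, and the RBPJ core in those of Clec4f and Nr1h3. MAF half-sites were also found in the windows of Clec4f, Cd5l and Folr2, and a nuclear receptor half-site in that of Clec4f. A match describes the letters only.

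Vsig4 encodes CRIg, an immunoglobulin-fold receptor through which Kupffer cells take up particles coated with complement C3 fragments. It stood at 15.1, 7.34 and 17.4 CPM in libraries 2, 3 and 2600 and at 16.8, 14.5 and 26.8 CPM in scrambled libraries 28, 30 and 31. The groups overlapped, with library 3 lowest and scrambled library 31 highest. The log2 change of -0.54 ± 0.33 (SE) did not pass (edgeR adjusted p = 0.31). C3, the source of its ligand, stood at 5250 and 4959 CPM in the group means (edgeR adjusted p = 0.89).

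Clec4f encodes a C-type lectin that in mice is made almost only by Kupffer cells. It stood at 72.4, 68.4 and 130.3 CPM in libraries 2, 3 and 2600 and at 117.1, 63.5 and 90.3 CPM in scrambled libraries 28, 30 and 31. The 2 highest libraries, 2600 and 28, were from different groups. The means of 90.4 ± 34.6 and 90.3 ± 26.8 CPM (SD, n = 3 each) were nearly equal, with a log2 change of 0.00 ± 0.29 (SE). With library totals alone the change was -0.37, close to the shift of all genes under that scaling, whose median moved from 0.04 to -0.32.

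Clec1b encodes CLEC-2, a lectin receptor for podoplanin that Kupffer cells share with platelets. It varied least of the macrophage surface genes: 30.7, 31.4 and 38.6 CPM in libraries 2, 3 and 2600 and 41.1, 32.3 and 37.1 CPM in scrambled libraries 28, 30 and 31. Its log2 change was -0.13 ± 0.15 (SE, edgeR adjusted p = 0.61), and -0.50 with library totals alone (edgeR adjusted p = 0.031). The annotated spans of Clec1b and of Clec9a, a dendritic cell gene on the same strand, overlap by 474 bases, and Clec9a held 55.7% as many counts, so the 2 genes may share reads. Platelet markers were scarce, with a summed level of 7.37 to 15.5 CPM in the knockdown-labelled libraries and 9.11 to 10.7 CPM in the scrambled ones over 9 genes, none at 0 in all libraries. Podoplanin itself, Pdpn, fell to 0.51 ± 0.37 from 1.82 ± 0.16 CPM (SD, n = 3 each, edgeR adjusted p = 0.037), although this call was lost without any one of libraries 3, 28, 30 or 31 (0.062 to 0.13) and with the legacy quasi-likelihood (0.060).

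Marco, Cd163 and Cd5l encode proteins built from scavenger receptor cysteine-rich domains. MARCO is a surface receptor that binds bacteria and particles. The gene stood at 0.62, 0.88 and 20.6 CPM in libraries 2, 3 and 2600, from 40, 55 and 908 counts. Scrambled libraries 28, 30 and 31 held 1.13, 0.57 and 0.73 CPM, from 76, 39 and 63 counts. Library 2600 stood apart, and libraries 2 and 3 lay within the scrambled range. The log2 change of 3.17 ± 1.19 (SE) did not pass with all libraries (edgeR adjusted p = 0.11). It was -0.12 without library 2600 (edgeR adjusted p = 0.87) and 3.70 without library 2 (edgeR adjusted p = 0.023).

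CD163 clears complexes of haemoglobin and haptoglobin. Its gene stood at 0.57, 6.41 and 27.8 CPM in libraries 2, 3 and 2600, from 37, 401 and 1222 counts. Scrambled libraries 28, 30 and 31 held 1.09, 0.52 and 1.40 CPM, from 73, 36 and 121 counts. Here 2 libraries, 3 and 2600, exceeded each scrambled library, and library 2 lay at the low end of the scrambled range. These 2 are the libraries in which S100a11 was low, at 3.55 and 3.41 CPM. They also held more Gm26917, at 6.44% and 10.8% of counts against 3.99% in library 2. With 3 libraries in the group neither order was tested, and the 2 traits cannot be told apart. The log2 change of 3.50 ± 1.06 (SE) missed the threshold (edgeR adjusted p = 0.058). It was 4.04 without library 2 (edgeR adjusted p = 0.0021) and 1.75 without library 2600 (edgeR adjusted p = 0.20). It also passed with DESeq2 (adjusted p = 0.033) and with no filter on low counts (edgeR adjusted p = 0.034). It did not pass with RLE scaling, library totals alone, Gm26917 left out or the legacy quasi-likelihood (edgeR adjusted p-values of 0.051 to 0.063), nor with voom. Haptoglobin, Hp, one of the most abundant hepatocyte transcripts, stood at 3787 and 3557 CPM in the group means (edgeR adjusted p = 0.85).

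Cd5l encodes AIM, a protein that Kupffer cells secrete and that circulates bound to immunoglobulin M. Its mean level per kilobase of gene length was the highest of the members in both groups, although Nr1h3 exceeded it in library 3. It stood at 142.9, 60.4 and 204.8 CPM in libraries 2, 3 and 2600 and at 224.3, 124.3 and 195.5 CPM in scrambled libraries 28, 30 and 31. Library 3 was lowest, and the other 2 knockdown-labelled libraries lay within the scrambled range. The log2 change was -0.42 ± 0.39 (SE, edgeR adjusted p = 0.52). Ighm, the heavy chain of its carrier, fell to 10.8 ± 1.29 from 33.3 ± 16.1 CPM (SD, n = 3 each, edgeR adjusted p = 0.011).

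Folr2 encodes a folate receptor of resident macrophages. It stood at 7.20, 2.88 and 9.16 CPM in libraries 2, 3 and 2600 and at 7.39, 5.17 and 8.89 CPM in scrambled libraries 28, 30 and 31. As for Cd5l, library 3 was lowest and library 2600 among the highest. The log2 change was -0.17 ± 0.38 (SE, edgeR adjusted p = 0.81), and it changed sign to 0.19 without library 3. The antisense gene Gm10602, which overlaps the GENCODE M21 span of Folr2, held 13.5% as many counts. The deposited span of Folr2 ends at 101845331 rather than at 101857194, and overlap with that shorter span was not tested.

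Adgre1 encodes F4/80, the adhesion receptor by which mouse macrophages are commonly sorted. It stood at 29.5, 16.6 and 41.0 CPM in libraries 2, 3 and 2600 and at 39.2, 29.9 and 46.1 CPM in scrambled libraries 28, 30 and 31. Library 3 was again lowest, and library 2 lay just under the lowest scrambled library. The log2 change was -0.40 ± 0.30 (SE, edgeR adjusted p = 0.41). Eosinophils also carry F4/80. The summed level of 7 eosinophil markers was 0.43 to 1.07 CPM in the knockdown-labelled and 1.25 to 1.89 CPM in the scrambled libraries, with Epx and Ear6 at 0 in all of them. Siglecf, the 1 marker of the 7 with enough counts to be tested, fell to 0.47 ± 0.21 from 1.35 ± 0.36 CPM (SD, n = 3 each, edgeR adjusted p = 0.033), a call lost without any one of libraries 3, 2600, 28, 30 or 31 (0.060 to 0.11). The part of eosinophils in the Adgre1 values was not tested.

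Nr1h3 encodes LXR alpha, the oxysterol-sensing nuclear receptor that helps to maintain Kupffer cell identity and that hepatocytes also make. It stood at 95.1, 109.5 and 124.8 CPM in libraries 2, 3 and 2600 and at 87.9, 77.3 and 84.5 CPM in scrambled libraries 28, 30 and 31. The groups did not overlap, but the log2 change of 0.40 ± 0.14 (SE) missed the threshold (edgeR adjusted p = 0.097). It passed without library 2 (0.46, edgeR adjusted p = 0.033), and it was 0.03 with library totals alone. Hepatocyte markers were also higher by sign in 9 of 10, with a median log2 change of 0.41, and their part in the Nr1h3 values was not tested. In a list of 18 genes, sterol-responsive LXR targets together with the LXR beta gene Nr1h2, 1 rose and 1 fell. The sterol exporter Abcg8 was higher (280 ± 24.6 against 169 ± 47.7 CPM, SD, n = 3 each, edgeR adjusted p = 0.044) and the small GTPase gene Arl4c lower (5.26 ± 1.84 against 9.82 ± 1.42 CPM, edgeR adjusted p = 0.047). The Abcg8 call was lost with library totals alone (edgeR adjusted p = 0.19), with Gm26917 left out (0.051) and with the legacy quasi-likelihood (0.050). That of Arl4c was lost with RLE scaling (edgeR adjusted p = 0.050) and with Gm26917 left out (0.051). Neither call held without any one of libraries 3, 2600, 30 or 31 (edgeR adjusted p-values of 0.087 to 0.17), and the Arl4c call was also lost without library 28 (0.087).

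**Figure D2:**
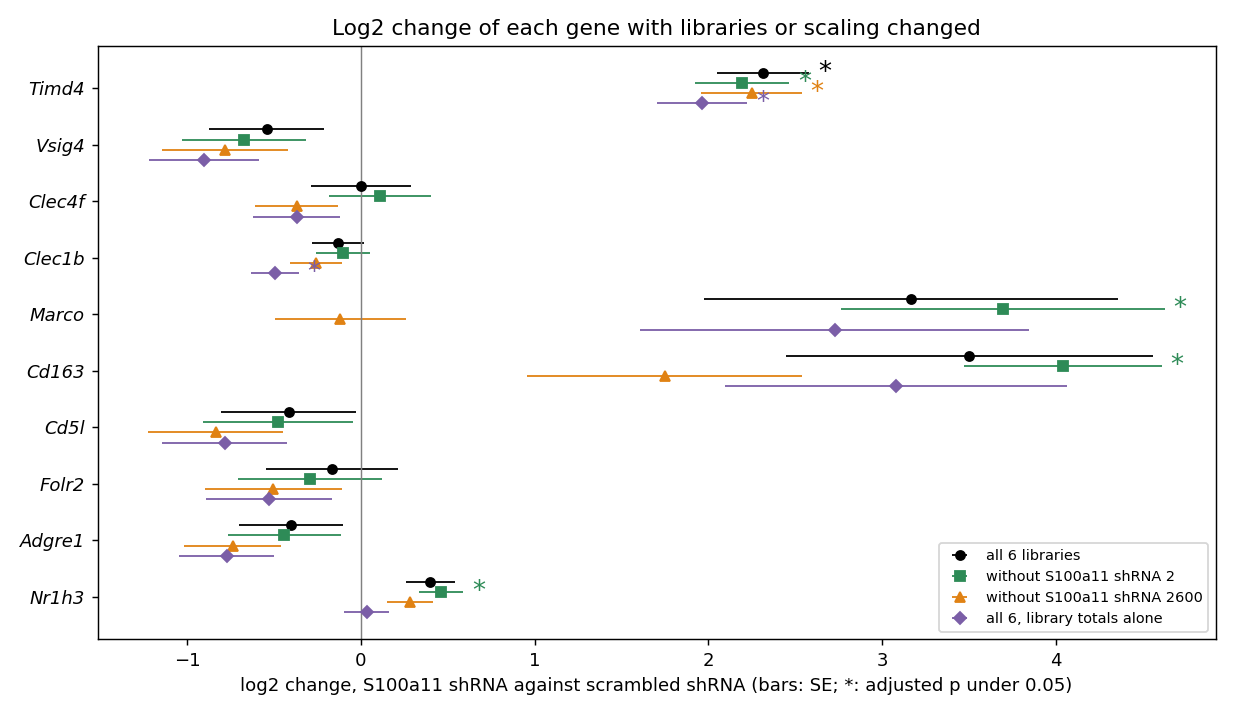
Log2 change of each member between knockdown-labelled and scrambled libraries, with the SE as a bar, for all 6 libraries, without library 2, without library 2600, and with scaling by library totals alone. An asterisk marks an edgeR adjusted p under 0.05. Timd4 lies near 2 in all 4 settings, Cd163 at 1.75 or above, Marco is at -0.12 without library 2600, and the other 7 members lie to the left of 1.

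Levels were compared between members per kilobase of gene length, as listed in the table. In the scrambled libraries Cd5l stood at 89.1 ± 25.3 CPM per kilobase, followed by Clec4f at 36.6 ± 10.8 and Nr1h3 at 33.1 ± 2.15 (SD, n = 3). Vsig4 at 13.03 ± 4.40 and Adgre1 at 11.8 ± 2.51 came next, then Clec1b at 7.21 ± 0.86 and Folr2 at 6.63 ± 1.73. The mean of Nr1h3 was above that of Clec4f in the knockdown-labelled group, at 43.6 ± 5.92 against 36.6 ± 14.0 CPM per kilobase. In the scrambled libraries, within each of these 3 neighbouring pairs, the levels did not differ beyond their spread. Timd4 at 0.82 ± 0.24, Marco at 0.42 ± 0.15 and Cd163 at 0.22 ± 0.099 CPM per kilobase were the 3 lowest. In the knockdown-labelled group the means of these 3 were 4.09 ± 0.72, 3.83 ± 5.97 and 2.58 ± 3.19 CPM per kilobase. The order there differed between libraries. In library 2600 Marco stood at 10.7 CPM per kilobase, above Folr2 at 8.49 and Clec1b at 7.57, and in library 3 Folr2 at 2.67 was below Timd4 at 3.27.

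Within a group many members shared their highest or lowest library. The share of all genes with the same order was not computed, so this is not shown to be particular to the members. Among the knockdown-labelled libraries, 9 of 10 members were highest in library 2600, the exception being Timd4. In that group 6 were lowest in library 3 and 4, Cd163, Clec1b, Marco and Nr1h3, in library 2. In the scrambled group all 10 were lowest in library 30, while 6 were highest in library 28 and 4 in library 31. The ratio of highest to lowest knockdown-labelled library was 48.5 for Cd163 and 33.3 for Marco. It ran from 1.26 for Clec1b to 3.39 for Cd5l among the other 8. In the scrambled group it was 1.14 for Nr1h3 to 2.67 for Cd163.

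Ratios between members within a library do not depend on how libraries are scaled. Per 100 Clec4f counts, libraries 2, 3 and 2600 held 13.8, 10.4 and 7.38 Timd4 counts, and scrambled libraries 28, 30 and 31 held 1.84, 1.85 and 2.22. The knockdown-labelled mean was 5.32-fold higher (10.5 ± 3.19 against 1.97 ± 0.22, SD, n = 3 each), and 4.50-fold to 6.11-fold higher without any one library. Per 100 Adgre1 counts Timd4 was 7.24-fold higher (33.3 ± 9.64 against 4.60 ± 0.80). By exact permutation (two-sided, on log2 ratios) p was 0.1 for both, the smallest p that 3 against 3 libraries allow, and 0.45 after adjustment over 18 such ratios. The groups were thus fully separated in Timd4 relative to both genes.

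Relative to Clec4f, Marco and Cd163 kept the pattern of their CPM. Per 100 Clec4f counts Cd163 stood at 0.79, 9.37 and 21.3 in libraries 2, 3 and 2600, while the scrambled values were 0.93, 0.82 and 1.55. Marco stood at 0.86, 1.29 and 15.8 against 0.96, 0.89 and 0.81. Library 2 was low for both. The other ratios to Clec4f overlapped between the groups, with exact two-sided permutation p-values of 0.2 to 0.7. Relative to Adgre1, Nr1h3 was also higher in each knockdown-labelled library (304 to 658 against 183 to 259 per 100 Adgre1 counts, exact permutation p = 0.1).

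**Figure D3:**
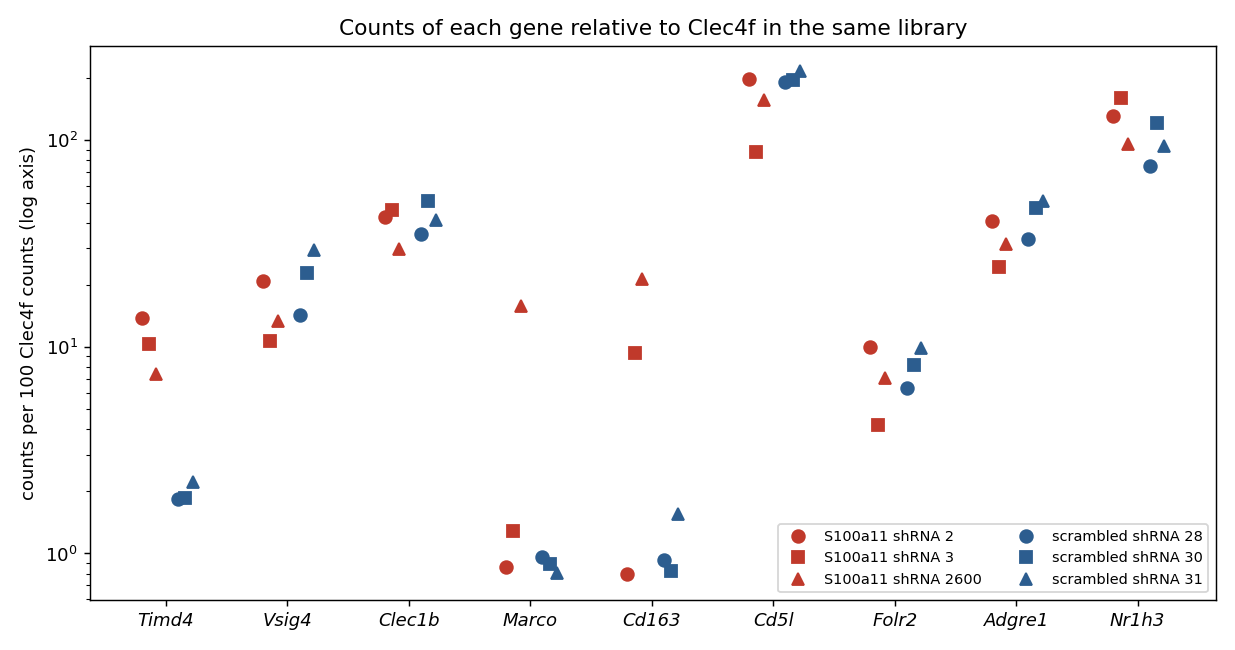
Counts of the other 9 members per 100 Clec4f counts of the same library, on a log axis. Red symbols are libraries 2, 3 and 2600 and blue symbols scrambled libraries 28, 30 and 31. Red and blue do not overlap for Timd4, while red symbols for Marco and Cd163 spread from about the level of the blue ones to 15.8 and 21.3.

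Genes that macrophages of any origin share were lower. Of 16 such markers 7 fell and 0 rose, with a median log2 change of -0.91, none was at 0, and by sign all 16 were lower. Their summed level was 419 to 775 CPM in the knockdown-labelled and 934 to 1305 CPM in the scrambled libraries. The endotoxin co-receptor gene Cd14 stood at 3.46 ± 1.69 against 11.5 ± 1.72 CPM (SD, n = 3 each, edgeR adjusted p = 0.016) and the lysozyme gene Lyz2 at 48.2 ± 20.8 against 121 ± 35.2 CPM (edgeR adjusted p = 0.034). The count of 7 became 14 without library 2, 3 without library 2600 and 1 without library 3, 28, 30 or 31, and was 16 with library totals alone. The call of Lyz2 was lost without any one of libraries 3, 2600, 28, 30 or 31 (edgeR adjusted p-values of 0.060 to 0.10).

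As a percentage of that summed level, Timd4 was 1.29% to 1.69% in the knockdown-labelled libraries and 0.13% to 0.21% in the scrambled ones. Clec4f was 9.35%, 16.3% and 19.8% in libraries 2, 3 and 2600, while the scrambled values were 11.5%, 6.80% and 6.92%. Library 2 was thus the one in which Clec4f did not exceed each scrambled library on this measure. The difference between the members and the shared markers as lists was not tested.

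Markers of recruited cells were lower as well. Of 12 lipid-associated macrophage markers 11 fell, with a median log2 change of -1.97 and a summed level of 148 to 307 against 836 to 1079 CPM. A large part of that sum was Spp1, at 43.8 against 258 CPM in the group means, and Lpl, at 55.9 against 268 CPM. Which cells these transcripts came from was not tested. Of 12 monocyte markers 8 fell, with a median of -1.29, and this became 4 without library 3 or 31 and 5 without library 28 or 30. Their summed level, 2411 to 3093 against 2157 to 2441 CPM, was nearly all Fn1, which hepatocytes also make and which was chosen after its values were seen. The lipid receptor gene Trem2 (5.58 ± 1.96 against 25.6 ± 3.11 CPM, SD, n = 3 each, edgeR adjusted p = 0.0032) and the integrin gene Itgam (5.60 ± 1.83 against 14.7 ± 0.72 CPM, edgeR adjusted p = 0.0079) fell. Their part in the values of the members was not tested. Proliferation markers gave 1 fall of 6, that of Mki67, which was lost without any one of libraries 3, 2600, 28, 30 or 31 (edgeR adjusted p-values of 0.057 to 0.073).

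**Figure D4:**
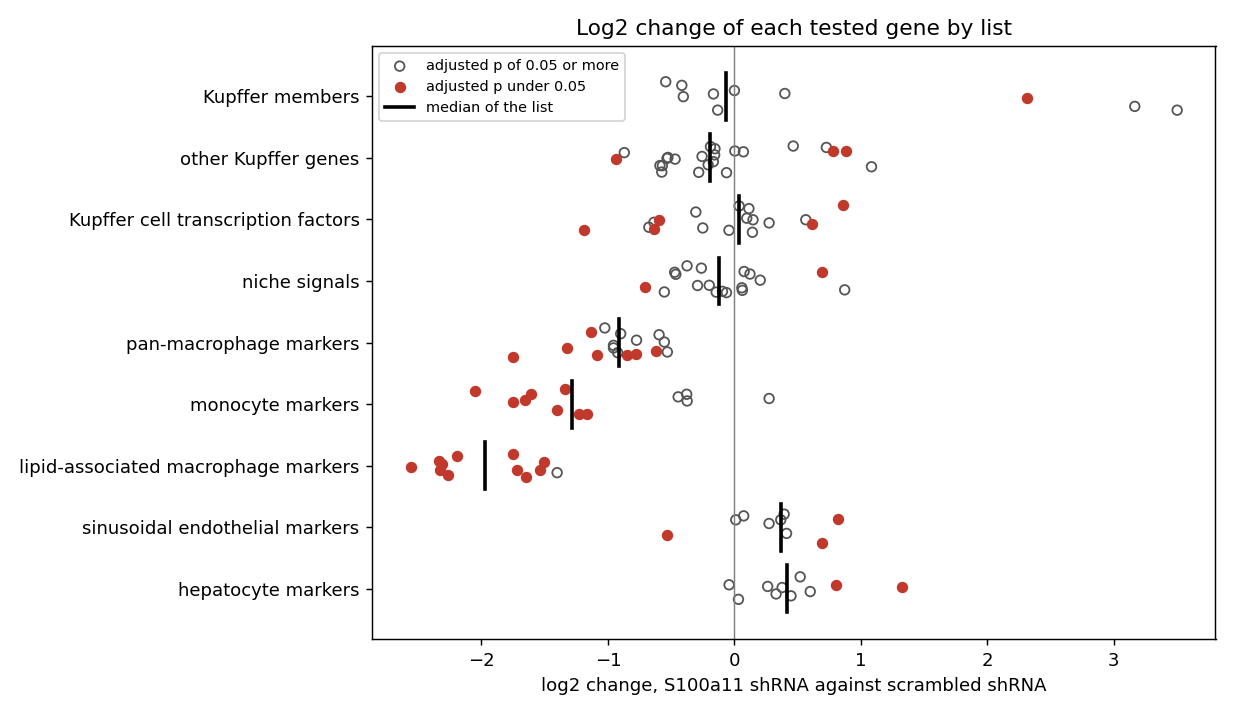
Log2 change of each tested gene, grouped by list, with the median of each list as a black bar. Filled red points passed the edgeR adjusted p threshold of 0.05. The members scatter around a median of -0.07, with Timd4 the one filled point, whereas shared macrophage, monocyte and lipid-associated macrophage markers centre on -0.91, -1.29 and -1.97.

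Other genes that are high in Kupffer cells moved in both directions. Of 24 listed genes 23 could be tested, and 2 rose and 1 fell, with a median log2 change of -0.19. Ficolin A, Fcna, a soluble lectin of complement, stood at 12.9, 18.7 and 22.0 CPM in libraries 2, 3 and 2600 and at 9.69, 8.52 and 10.8 CPM in scrambled libraries 28, 30 and 31 (edgeR adjusted p = 0.027). The prostaglandin-degrading enzyme gene Hpgd was higher (82.2 ± 17.8 against 47.8 ± 10.96 CPM, SD, n = 3 each, edgeR adjusted p = 0.044) and the complement gene C1qb lower (60.2 ± 18.9 against 115 ± 22.0 CPM, edgeR adjusted p = 0.036). The complement gene C6, which hepatocytes also make, stood at 377 ± 180 against 178 ± 19.5 CPM and did not pass (edgeR adjusted p = 0.066). None of these calls was firm. Those of Fcna and C1qb were lost without any one of libraries 3, 2600, 28, 30 or 31 (edgeR adjusted p-values of 0.058 to 0.12), and that of Hpgd without any one of libraries 2, 3, 28, 30 or 31 (0.057 to 0.16). With library totals alone 0 rose and 7 fell.

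Transcription factors that work in Kupffer cells were divided. Of 17 genes 2 rose and 3 fell. Cebpb, a factor of myeloid cells and of hepatocytes, was higher (77.0 ± 5.30 against 42.5 ± 10.8 CPM, SD, n = 3 each, edgeR adjusted p = 0.022). Zeb2, which maintains macrophage identity, was lower (122 ± 15.8 against 189 ± 11.5 CPM, edgeR adjusted p = 0.023), as were Irf8, chosen after its values were seen, and Runx1. Runx1 stood at 9.34 ± 1.97 against 21.3 ± 3.19 CPM (edgeR adjusted p = 0.0079). The rise of Cebpb was lost with library totals alone (edgeR adjusted p = 0.12) and without library 3 or 30 (0.071 and 0.060). The fall of Zeb2 was lost without any one of libraries 3, 28, 30 or 31 (0.058 to 0.090). With library totals alone 0 of the 17 rose and 5 fell, and without library 3 or 30 0 rose and 1 fell.

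Signals that support Kupffer cells gave 1 rise and 1 fall of 18. Bmp2, a ligand of sinusoidal endothelium, rose to 33.8 ± 2.23 from 20.9 ± 1.83 CPM (SD, n = 3 each, edgeR adjusted p = 0.013), though not with library totals alone (0.13), without library 30 (0.079) or without library 3 (0.050). Acvrl1, the endothelial and macrophage receptor for BMP9 and BMP10, fell to 7.50 ± 1.14 from 12.2 ± 0.89 CPM (edgeR adjusted p = 0.027), a call lost without any one of libraries 3, 2600, 28, 30 or 31 (0.058 to 0.10). The macrophage growth factor genes Csf1 and Il34 and their receptor gene Csf1r were each lower in all knockdown-labelled libraries and did not pass (log2 changes of -0.26, -0.37 and -0.55, edgeR adjusted p = 0.19, 0.18 and 0.14). These 3 genes were chosen after their values were seen. With library totals alone 8 of the 18 fell.

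The ligands and partners of the members include other receptors and bridging proteins for dying cells. In the list of 22 ligands and partners of the members, 21 were tested, 1 rose and 5 fell. Mfge8, which bridges phosphatidylserine to integrins, fell to 15.7 ± 4.99 from 32.4 ± 2.71 CPM (SD, n = 3 each, edgeR adjusted p = 0.017). Timd2, a TIM family receptor for ferritin, rose to 58.5 ± 21.9 from 25.2 ± 5.52 CPM (edgeR adjusted p = 0.026). Axl and the scavenger receptor gene Msr1, both chosen after their values were seen, fell as well (log2 changes of -0.66 and -0.77, edgeR adjusted p = 0.042 and 0.039). The call of Mfge8 was lost without any one of libraries 3, 2600, 30 or 31 (0.053 to 0.061), and that of Timd2 without library 3, 30 or 31 (0.073 to 0.11) and with library totals alone (0.059). Of the 5 falls, 1 was left without library 3, 30 or 31.

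Genes with the closest pattern over the 6 libraries were taken from 12101 candidates. Candidates had a mean of at least 2 CPM and a symbol that is not that of a predicted model or clone. Distance was the root mean square difference of log2 CPM centred on the mean of each gene. For Timd4 the nearest were Nat8 (0.29), Cd300e (0.32) and Gbp11 (0.34). Cd300e stood at 5.62, 2.97 and 5.02 CPM in libraries 2, 3 and 2600 and at 0.67, 0.57 and 0.64 CPM in scrambled libraries 28, 30 and 31. For Vsig4 the nearest was C1qa (0.086), for Clec4f it was Cfp (0.17), and for Folr2 they were Tmem26 (0.12) and then Adgre1 (0.18). Folr2 in turn was among the 3 nearest to Cd5l (0.20). For Marco the nearest was Asic5 (0.47), at 64.9 CPM in library 2600 and at 2.50 to 6.71 CPM in the other 5. No candidate was closer to Cd163 than 0.94, the distance of Asic5. Next came Cyp4a12b (0.97) and Mup18 (0.995). Cyp4a12b stood at 18.7, 67.1 and 110.2 CPM in libraries 2, 3 and 2600 and at 7.22 to 11.3 CPM in the scrambled ones. Mup18 stood at 4.83, 17.3 and 24.3 CPM in libraries 2, 3 and 2600 and at 1.13 to 2.06 CPM in the scrambled ones.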

How the data were processed

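The authors deposited raw counts per Ensembl gene with each gene's length. Libraries were made from 100 ng of total RNA with a stranded Illumina kit after rRNA depletion, per the labels' protocols, and the genome build was mm10, per the submitters' processing notes. The aligner, the counter and its use of strand: not given in the sources used here. Coordinates matched GENCODE M21 for 7 of 10 members, and those printed are the table's.

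Counts were compared in R 4.3.3 with edgeR 4.0.16 (filterByExpr, minimum count 10; TMM; glmQLFit with the newer quasi-likelihood; glmQLFTest), with Benjamini-Hochberg adjustment over 19352 genes. SE is the log2 change over the root of F. The procedure was run on counts simulated from the fitted means and dispersions. No simulated library departed from its group, so that case was not tested. Ratios were compared by exact permutation. Alternatives were RLE factors, library totals alone, no filter, leaving out Gm26917, DESeq2 1.42.0, voom with quality weights (limma 3.58.1) and each library left out. The legacy quasi-likelihood and ratios without each library were added after seeing the data. Named genes were the members, S100a11, Gm26917, the first 4 genes by p of each list and the 3 nearest patterns of each member. One gene that this rule names is not reported here. The members and lists were chosen with earlier results of these data known. Python 3.11.15 drew the figures.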

Additional observations from a re-analysis of the deposited data

How the results depend on the processing

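Timd4 kept its direction and its call under each of the 13 alternatives run. The members called higher numbered 2 with no filter, with DESeq2 (Cd163 added) and with voom (Nr1h3 added), and 1 to 4 without one library. Over all genes, those called higher were 1089 of 29120 with no filter, 1621 of 19352 with DESeq2 and 1648 of 19352 with voom. Without library 2, the setting with 4 members called, they were 1806 of 19779. With library totals alone 1 member was called lower, and all genes gave 4367 calls, 397 higher and 3970 lower. Without one library all genes gave 724 to 4176 calls, 221 to 1806 of them higher and 503 to 2370 lower. Clec4f, with a log2 change near 0, turned to -0.0041 with RLE, -0.37 with library totals alone, -0.020 without Gm26917, -0.0038 with DESeq2 and -0.027 with voom. Leaving out one library gave -0.37 to 0.23 for Clec4f, -0.12 to 3.70 for Marco and -0.50 to 0.19 for Folr2, where the scrambled library 31 gave 0.026, and Clec4f was -0.20 without library 30. DESeq2 gave no adjusted p for Marco. The cause of these shifts was not tested. Cd163 and Marco rest on 36 to 121 counts in the scrambled libraries, which limits how finely their levels there can be read. No paired analysis was possible because the groups share no replicate number.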
